A study of Oryza brachyantha and Oryza sativa Japonica Group and Oryza glaberrima with 38 samples.

Results

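Peaks of H3K4me3, trimethylation of histone H3 at lysine 4, were compared between Asian cultivated rice, Oryza sativa, and its wild relative O. brachyantha, which has a smaller genome. The comparison used the 3 H3K4me3 peak lists made from above-ground tissue at the tillering stage, 60 days after germination, by sequencing DNA recovered with the modified histone (ChIP-seq). They hold 79169 of the 532158 lines in the 21 peak lists of the series, with 28228 in O. sativa (japonica group, 1 library), 24291 in O. brachyantha batch 1 and 26650 in O. brachyantha batch 2. The plants were grown in a greenhouse, no cultivar, mutation or treatment is named in the labels, and the same H3K4me3 antibody (Millipore 07-473) was used throughout. The whole study covered 6 grasses and 38 samples, with the stated purpose of comparing heterochromatin between closely related genomes. According to the sample titles, the control was input DNA for O. sativa, used also for H3K9me2, and for O. brachyantha batch 2, used also for H3K9me2 and H3K56Ac, whereas batch 1 had a histone H3 control.

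H3K4me3 is placed on nucleosomes just downstream of the start of transcribed genes in plants, animals and yeast. In grasses its peaks are narrow and mark genes rather than repeats, so the positions of peaks trace where active genes lie along a chromosome. H3K9me2, which is referred to below, is a mark of silent, repeat-rich chromatin. Each species was placed on its own assembly (tigr6 in O. sativa, RS2 in O. brachyantha), and chromosomes 1 to 12 were paired by number. No sequence is shown, because genome sequence was not used here.

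The lists were not equal in signal. Read totals, and so depth, are unknown, since the lists carry none. The median pileup of reads at a peak was 30 in O. sativa, 124 in batch 1 and 45 in batch 2. The median fold enrichment over the control, a value of the authors' peak caller, was 3.72 in O. sativa, 5.67 in batch 1 and 5.28 in batch 2. The lowest −log10 q was 1.31 in each list. These differences run with the species in every comparison that follows, and their part in the results was not tested. With 1 library against 2, an exact permutation test over samples cannot go below p = 0.333, so no test between species is given. Differences are set against the gap between the O. brachyantha batches, which may come from 1 set of plants or from several, as the labels do not say. The batches also differ in control, histone H3 or input, and in pileup, so this gap is not replicate spread alone. The spread between O. sativa libraries is unknown. Leaf or shoot marker genes were not checked here, because the gene table used gives no gene descriptions.

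The lists as deposited held similar numbers of H3K4me3 peaks in both species, on chromosomes of very different length. On the numbered chromosomes O. sativa had 28228 peaks, O. brachyantha batch 1 had 24282 and batch 2 had 26639, so that O. sativa had 1.11 times the O. brachyantha mean. This order of counts depended on the threshold. With −log10 q of at least 5 it turned, with 20105 peaks in O. sativa, 21795 in batch 1 and 21711 in batch 2. The O. sativa chromosomes measured 372 Mb, against 259 Mb in O. brachyantha. Peaks per Mb were therefore lower in O. sativa, at 75.8, than in batch 1, at 93.8, and batch 2, at 103. The O. brachyantha mean of 98.3 ± 6.44 (SD, n = 2) was 1.30 times the O. sativa value, and the difference of 22.5 peaks per Mb was 2.47 times the difference between batches.

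The order held on each chromosome pair. Both batches had more peaks per Mb than O. sativa on 12 of 12 chromosomes, whereas the count of peaks was higher in O. sativa than in both batches on 11 of 12. The exception was chromosome 4, where O. sativa had 2322 peaks, batch 1 had 2086 and batch 2 had 2328. O. sativa chromosomes were 1.22 times (chromosome 3) to 1.63 times (chromosome 11) as long as their partners, but held only 1.05 times (chromosome 4) to 1.24 times (chromosome 12) as many peaks. The ratio of counts was lowest on chromosomes 1 to 4, at 1.05 to 1.07, and highest on chromosomes 10 to 12, at 1.21 to 1.24.

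**Figure D1:**
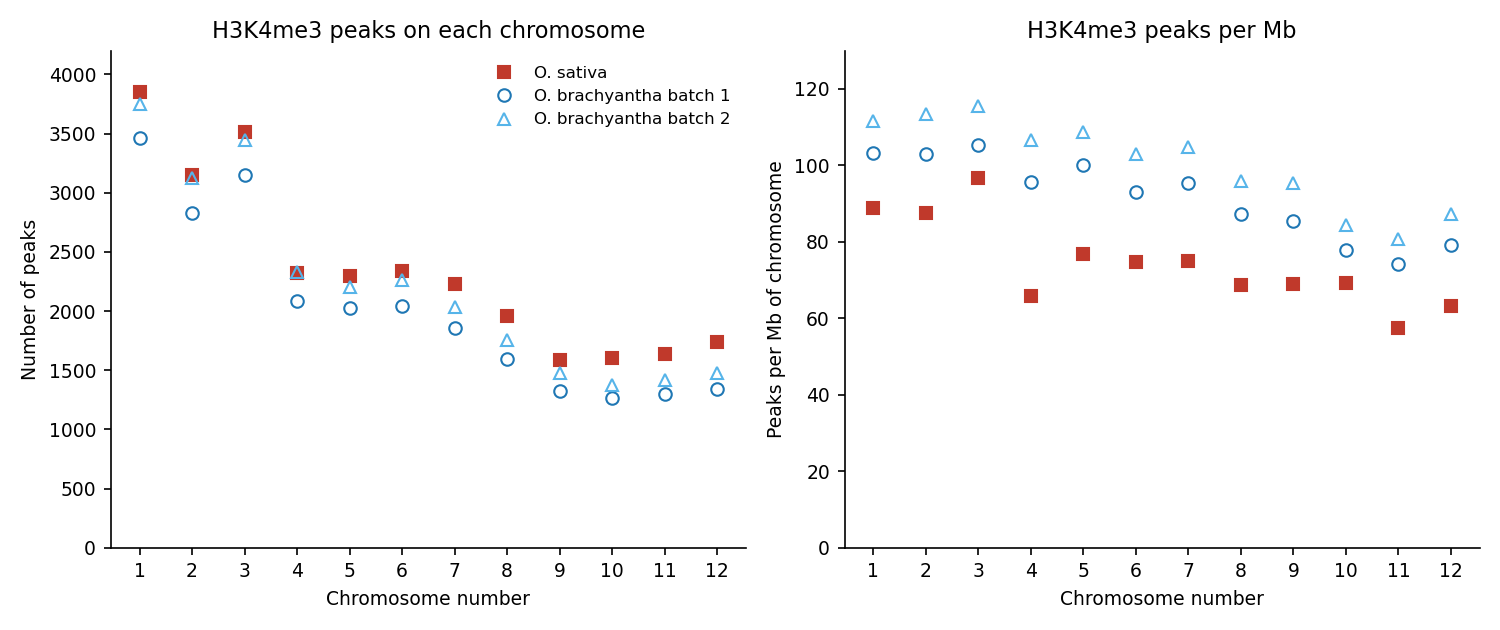
Number of H3K4me3 peaks on each chromosome (left) and peaks per Mb of that chromosome (right), for the O. sativa list and both O. brachyantha batches, with 1 point per list. Counts nearly coincide, with O. sativa slightly above, while peaks per Mb lie below both batches on all 12 chromosomes, farthest on chromosome 4 (65.8 against 95.6 and 107).

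Chromosome 4 showed the largest difference in density and chromosome 3 the smallest. On chromosome 4, O. sativa had 65.8 peaks per Mb, batch 1 had 95.6 and batch 2 had 107, a ratio of 1.54. On chromosome 3 the values were 96.6, 105 and 115, a ratio of 1.14. Chromosome 3 was the densest and chromosome 11 the sparsest in all 3 lists. Chromosome 11 had 57.5 peaks per Mb in O. sativa, 74.3 in batch 1 and 80.6 in batch 2. The ranking of the 12 chromosomes by density was similar in the species, with Spearman's rho of 0.839 between O. sativa and batch 1 and 0.832 with batch 2, against 0.993 between batches. These correlations describe 12 chromosomes that share a library and an assembly within each species.

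Long chromosomes carried more peaks per Mb in both species. Over 12 chromosomes, rho between length and density was 0.664 in O. sativa, 0.881 in batch 1 and 0.867 in batch 2. The more a chromosome exceeded its partner in length, the larger was the density ratio (rho = 0.755, n = 12), a relation in which length enters both sides.

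H3K4me3 peaks were narrower in O. sativa. The median width was 490 bp in O. sativa, 838 bp in batch 1 and 779 bp in batch 2. The O. brachyantha mean of 808.5 ± 41.7 bp (SD, n = 2) was 1.65 times the O. sativa value, and the difference of 318.5 bp was 5.40 times the difference between batches. Both batches had the wider median on 12 of 12 chromosomes. The chromosome medians ran from 439 to 534 bp in O. sativa, from 768.5 to 888 bp in batch 1 and from 700 to 836 bp in batch 2, so the ranges did not overlap. Chromosomes of a list share 1 library and its peak calling, here and in the other counts of chromosomes, so they are not replicates. Chromosome 3 had the widest median in all 3 lists, and chromosome 11 the narrowest.

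The difference lay at both ends of the width range. Peaks under 300 bp made up 28.8% of the O. sativa list, 8.90% of batch 1 and 17.3% of batch 2. Peaks of at least 1000 bp made up 9.33% in O. sativa, 33.4% in batch 1 and 30.5% in batch 2. Per Mb of chromosome there were 7.07 such peaks in O. sativa and 31.3 and 31.4 in the batches. For widths from 500 bp to under 1000 bp the shares were closer, at 39.6%, 44.9% and 38.5%.

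Width followed signal inside each list. Spearman's rho between width and fold enrichment over peaks was 0.611 in O. sativa, 0.609 in batch 1 and 0.719 in batch 2, and rho between width and pileup was 0.680, 0.689 and 0.751. In the lowest quartile of fold enrichment the median width was 253 bp in O. sativa, 389 bp in batch 1 and 284 bp in batch 2. In the highest quartile it was 737 bp, 1005 bp and 1060 bp. O. sativa peaks were thus narrower in each quartile of their own list, by the least in the lowest. Median pileup in these quartiles rose from 21 to 40 in O. sativa, from 59 to 170 in batch 1 and from 22 to 73 in batch 2. Equal quartiles are thus not equal in signal between lists. Where median fold was alike, O. sativa peaks had a median of 599 bp (quartile 3, fold 4.19, pileup 33). Batch 2 then had 627 bp (quartile 2, fold 4.06, pileup 33) and batch 1 had 779 bp (quartile 2, fold 4.12, pileup 100).

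**Figure D2:**
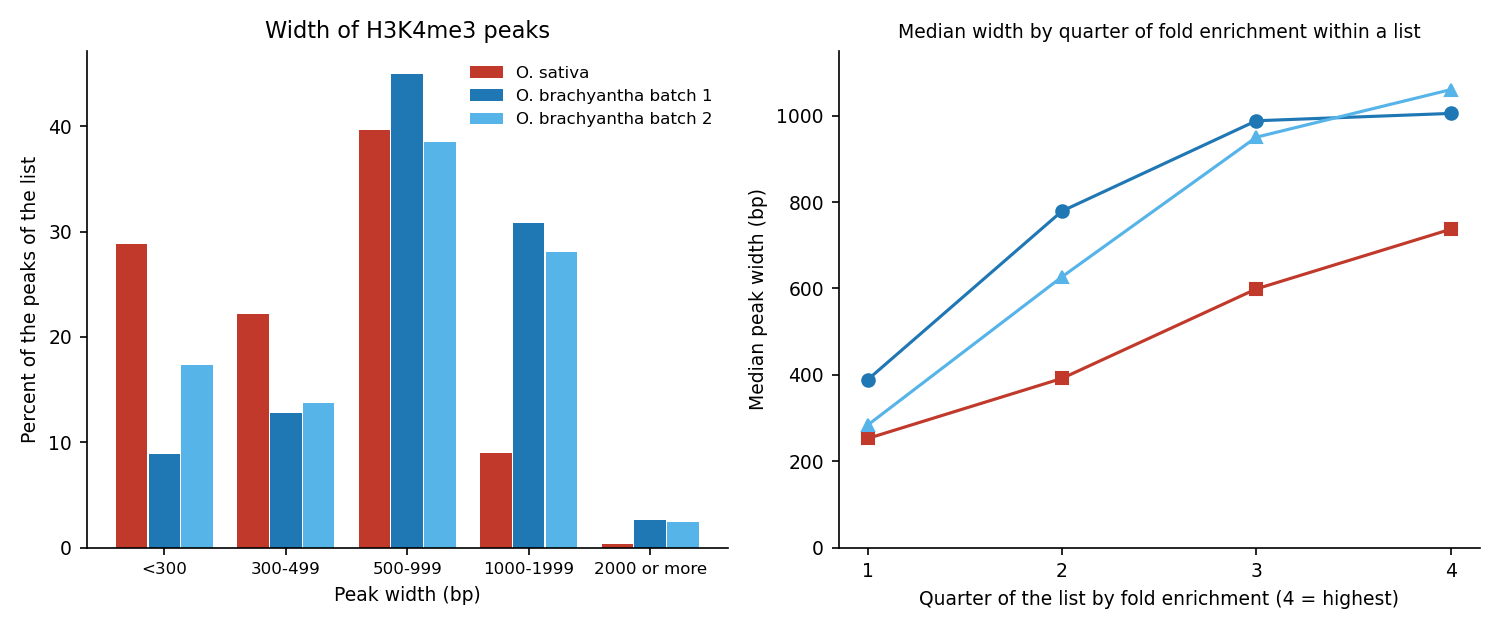
Share of peaks in 5 classes of width (left, percent of each list) and median width by quartile of the authors' fold enrichment within each list (right, bp). O. sativa has the largest share under 300 bp (28.8%) and the smallest of at least 1000 bp, and its median is lowest in each quartile (253 to 737 bp).

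Narrower and sparser peaks left less of the O. sativa chromosomes inside H3K4me3. Peaks covered 4.16% of chromosome length in O. sativa, 8.27% in batch 1 and 8.33% in batch 2. The O. brachyantha mean was 2.00 times the O. sativa share. In absolute terms the peaks summed to 15.5 Mb in O. sativa and to 21.4 and 21.6 Mb in the batches. The batches thus differed little in total coverage, although batch 1 had fewer and wider peaks than batch 2.

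Some peaks stood side by side, in O. sativa and batch 2 more often than in batch 1. Gaps under 500 bp made up 11.7% of the gaps between neighbours in O. sativa, 5.04% in batch 1 and 10.8% in batch 2. When intervals closer than 500 bp were joined, 24916 intervals of median width 599 bp remained in O. sativa, 23059 of 881 bp in batch 1 and 23755 of 884 bp in batch 2. Joining therefore brought the batches together, and the species ratio of median width went to 1.47.

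The batches marked largely the same places in O. brachyantha. Of the batch 1 peaks, 22446 of 24282 (92.4%) overlapped a batch 2 peak by at least 1 bp, and of the batch 2 peaks 23500 of 26639 (88.2%) overlapped a batch 1 peak. Peaks seen in 1 batch were narrow and weak. Their median width was 290.5 bp in batch 1 and 244 bp in batch 2, against 875 and 846 bp for shared peaks, and their median fold enrichment was 2.10 and 2.63, against 6.08 and 5.89. O. sativa has 1 library at this stage, so the same comparison could not be made there.

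Neighbouring H3K4me3 peaks stood farther apart in O. sativa, above all in the longest gaps. The median gap, from the end of a peak to the start of the next, was 7246.5 bp in O. sativa, 6370.5 bp in batch 1 and 5694 bp in batch 2. The O. brachyantha mean of 6032 ± 478 bp (SD, n = 2) was 0.832 times the O. sativa value, a difference 1.79 times that between batches. Both batches had the shorter median on 12 of 12 chromosomes, with 0.762 times the O. sativa value on chromosome 4 and 0.897 times on chromosome 3. When each list was cut to the same number of peaks per Mb, the ratio of medians became 1.04, a setting in which density no longer differs by construction.

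The upper part of the distribution differed more than the median. The 90th percentile of the gaps was 29263 bp in O. sativa, 20117 bp in batch 1 and 18923 bp in batch 2, and the 99th percentile was 90005, 59323 and 55450 bp. At the 25th percentile, O. sativa, with 3040 bp, lay between batch 1, with 3341 bp, and batch 2, with 2622 bp. Gaps of at least 20 kb numbered 4969 in O. sativa, 2452 in batch 1 and 2397 in batch 2. They were 17.6%, 10.1% and 9.002% of all gaps.

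Gaps of at least 20 kb differed between the species by nearly the same length as the chromosomes did. They summed to 203 Mb in O. sativa, 91.2 Mb in batch 1 and 89.0 Mb in batch 2, a difference from the O. brachyantha mean of 113 Mb, where the chromosomes differ by 113.4 Mb. Measured against each batch, this is 98.6% and 100.6% of the difference in length. Gaps of 20 to 50 kb contributed 58.7 Mb of it, gaps of 50 to 100 kb 37.6 Mb and longer gaps 16.7 Mb. Gaps of 10 to 20 kb held 13.4 Mb more in O. sativa, gaps under 10 kb held 7.03 Mb less, and the peaks themselves held 6.01 Mb less. In all, gaps of at least 20 kb took up 54.5% of the O. sativa chromosomes, 35.2% in batch 1 and 34.4% in batch 2.

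The same account held on single chromosomes, with some spread. The surplus in gaps of at least 20 kb ran from 79.7% of the length difference on chromosome 10 to 111% on chromosome 2. On chromosome 4, which differed most in length (13.5 Mb), such gaps summed to 21.6 Mb in O. sativa, 7.59 Mb in batch 1 and 7.52 Mb in batch 2. With the same number of peaks in every list, taken from the top by −log10 q, the surplus was 129 Mb, or 114% of the length difference. That setting removes more peaks from O. sativa than from either batch, and removing peaks lengthens gaps. The near match with the difference in length thus held for the lists as deposited and not in that setting.

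Long gaps held H3K9me2 in both species. In each list the share of gap length inside tillering H3K9me2 peaks was larger in each longer class of gap from 1 kb upward. It was 2.11% in O. sativa for gaps of 2 to 5 kb, 24.97% for 20 to 50 kb and 49.9% for at least 100 kb. In batch 1 with its own H3K9me2 list the values were 0.253%, 11.6% and 60.2%, and in batch 2 they were 0.595%, 17.4% and 71.2%. From 20 to 50 kb, the class in which the species differed most in length, H3K9me2 was higher in O. sativa than in either batch, and from 100 kb it was lower than in either. The H3K9me2 lists themselves covered 21.0% of the chromosomes in O. sativa, 9.18% in batch 1 and 12.5% in batch 2, and the part of this in the order of the classes was not tested.

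**Figure D3:**
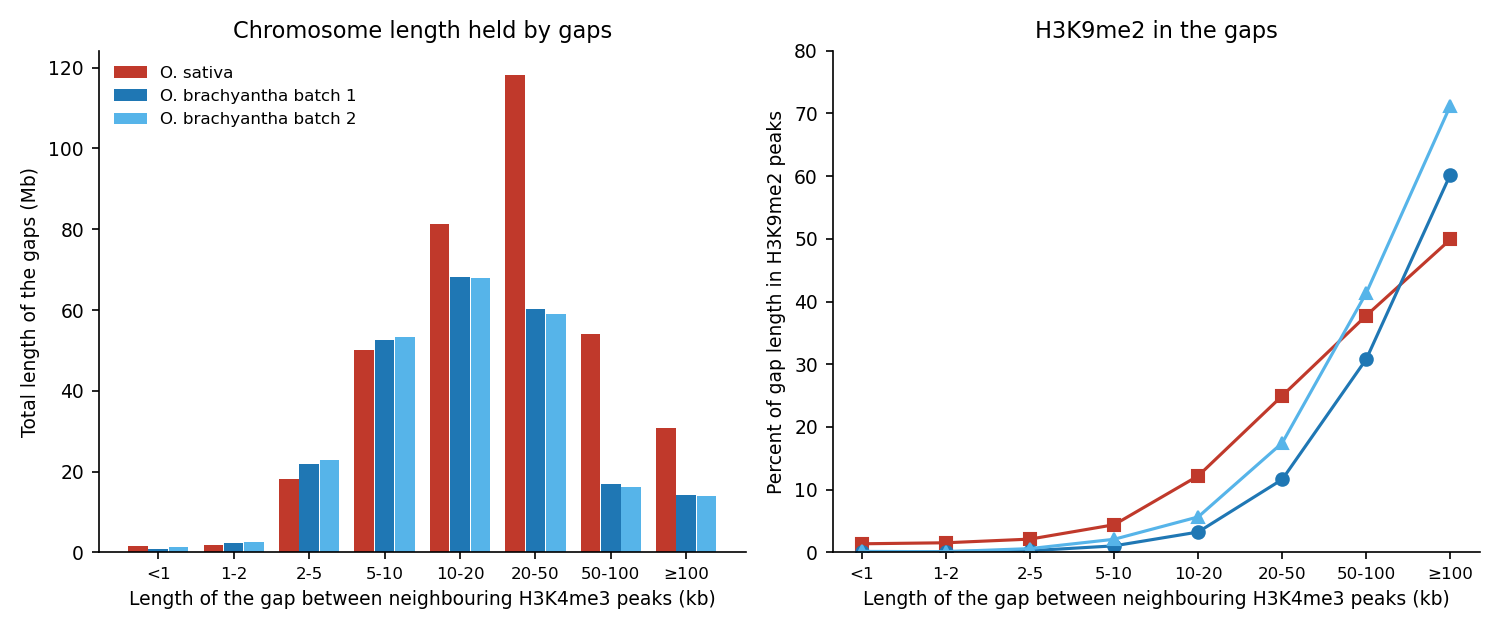
Total length of the gaps between neighbouring H3K4me3 peaks in 8 classes of gap length (left, Mb), and percent of that length inside H3K9me2 peaks of the same species and batch (right). O. sativa exceeds both batches in all classes from 10 kb, most in gaps of 20 to 50 kb (118 against 60.3 and 58.9 Mb), and from 1 kb upward the H3K9me2 share rises with gap length in all 3 lists.

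The longest gaps were of like size in both species. In O. sativa they were 546 kb on chromosome 6, from 18270066 to 18816296 (tigr6), 431 kb on chromosome 7, from 11893341 to 12323969, and 306 kb on chromosome 11, from 12437343 to 12743670. H3K9me2 peaks covered 76.8%, 57.9% and 79.1% of them. In O. brachyantha, stretches free of peaks of both batches were 542 kb on chromosome 12, from 8184449 to 8726845 (RS2), 425 kb on chromosome 11, from 7763810 to 8189289, and 391.6 kb on chromosome 12, from 6347705 to 6739305. H3K9me2 covered 92.8% and 96.4% of the first in batches 1 and 2, 76.7% and 84.9% of the second, and 74.5% and 87.8% of the third. In the RefSeq annotation of the same assembly the first overlapped 2 genes and the third 1, all protein-coding, while the second overlapped 51 genes, of which 2 are protein-coding. All 6 lay in the central part of their chromosomes, with centres between 38.6% and 59.3% of the length.

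Pooled over the 12 chromosomes, the density of H3K4me3 was high at both ends and low towards the middle in both species. Chromosome 9 had few peaks also in the first 5% of its length, with 36.5 peaks per Mb in O. sativa, 19.3 in batch 1 and 18.1 in batch 2. On chromosomes 4 and 10 the first 5% lay below the chromosome mean in each list, with lower values farther in. Each chromosome was divided into 20 bins of 5% of its length. In this pooled profile O. sativa had 91.0 peaks per Mb in the first bin, 47.9 in the lowest bin, from 40 to 45% of the length, and 112 in the last. Batch 1 had 115 in the first, 49.1 in the lowest, from 35 to 40%, and 132 in the last, and batch 2 had 127, 51.8 and 150. The pooled density was thus nearly the same in both species at the minimum, with a ratio of 1.03 from 35 to 40%, and 1.19 to 1.41 times higher in O. brachyantha in the other 19 bins. Density from 25 to 75% of the length was 0.675 times that of the outer parts in O. sativa, 0.667 times in batch 1 and 0.652 times in batch 2, a species difference about as large as that between batches.

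**Figure D4:**
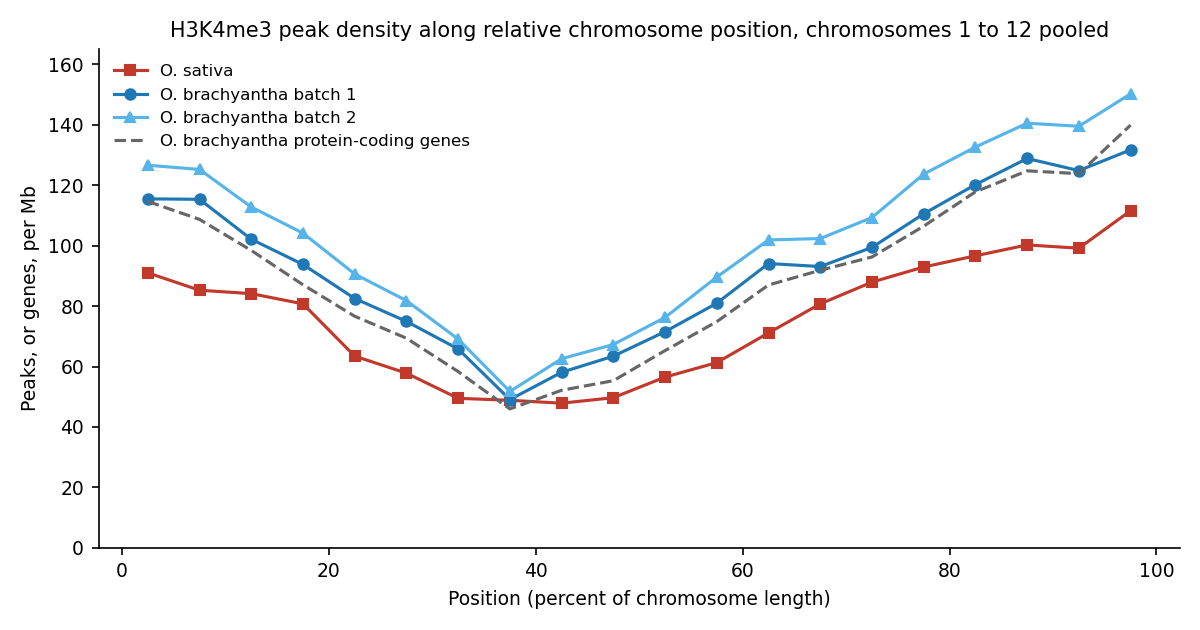
H3K4me3 peaks per Mb in 20 bins of relative position, pooled over chromosomes 1 to 12, for each list, with the density of O. brachyantha protein-coding genes (dashed). The O. sativa curve is flatter and meets the O. brachyantha curves at 35 to 40% of the length (48.8 against 49.1 and 51.8).

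Chromosome by chromosome the profiles were alike in shape. Spearman's rho over the 20 bins between O. sativa and the O. brachyantha mean had a median of 0.852 and ran from 0.718 on chromosome 11 to 0.948 on chromosome 10. Between the batches it ran from 0.953 to 0.996. With O. brachyantha turned end to end the median was 0.426, and rho was lower on 11 of 12 chromosomes. On chromosomes 4, 9 and 10 it was then −0.719, −0.813 and −0.551, so the side that was poor in peaks was the same in both species. Chromosome 6 was the exception, with 0.822 as listed and 0.896 reversed. On chromosomes 8 and 12 turning changed rho little, from 0.810 to 0.803 and from 0.785 to 0.773. Neighbouring bins are not independent, and these are descriptions of 20 points each.

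Measured against the mean of its own chromosome, the lowest density reached lower in O. brachyantha. Both batches were above O. sativa in 198 of the 240 bins (82.5%) and below it in 33 (13.8%). Of these 33 bins, 28 lay between 25 and 75% of the length, and 6 were on chromosome 10. Their densities, whose order the choice of bins fixes, had medians of 45.8 peaks per Mb in O. sativa, 33.1 in batch 1 and 33.9 in batch 2. H3K9me2 covered a median of 39.1% of these bins in O. sativa, 45.8% in batch 1 and 56.7% in batch 2, against 14.3%, 2.05% and 3.38% in the other 207 bins.

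The lowest bin of a chromosome had a median of 43.01% of that chromosome's mean density in O. sativa, 28.7% in batch 1 and 27.4% in batch 2. In peaks per Mb the lowest bin was lower in both batches than in O. sativa on 8 of 12 chromosomes, but higher in both on chromosomes 1, 4 and 5, and on chromosome 8 O. sativa lay between the batches. On chromosome 5, for example, it held 26.1 peaks per Mb in O. sativa, 27.7 in batch 1 and 28.7 in batch 2. Bins under 50% of the chromosome mean numbered 14 of 240 in O. sativa and 34 in each batch. Chromosomes 2, 6, 7 and 11 had none in O. sativa. In O. brachyantha they had 2, 2, 2 and 4 in both batches. Chromosome 5 went the other way, with 3 such bins in O. sativa and 1 in each batch, and the numbers were equal on chromosomes 1 (1 in each list) and 4 (3 in each list). The lowest bin was the same in both species on 3 chromosomes (1, 10 and 11), and no more than 1 bin away on 7.

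H3K9me2 ran opposite to H3K4me3 within each species. Spearman's rank correlation over the bins of a chromosome had a median of −0.835 in O. sativa, −0.833 in batch 1 and −0.863 in batch 2, and was negative on each chromosome in all 3 lists. The bin with fewest H3K4me3 peaks was also the bin with most H3K9me2 on 5 of 12 chromosomes in O. sativa, 9 in batch 1 and 10 in batch 2. These libraries share an input within O. sativa and within batch 2.

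**Figure D5:**
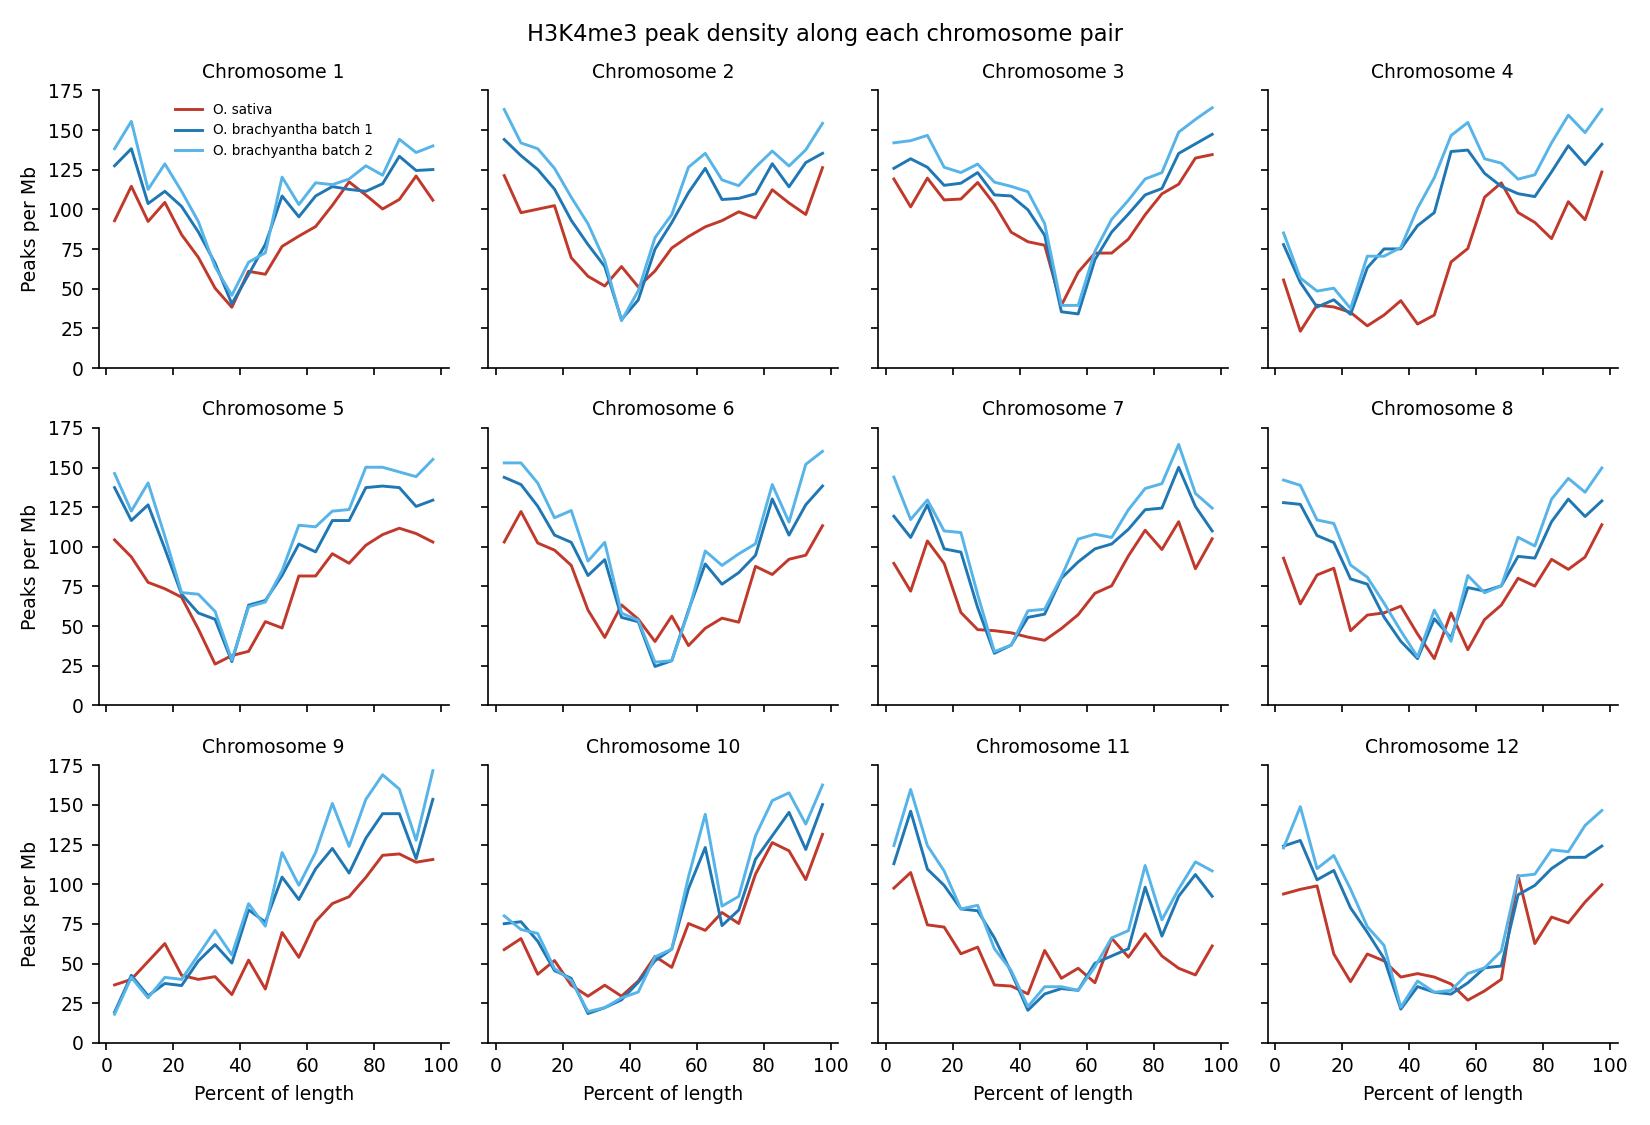
H3K4me3 peaks per Mb in 20 bins along each of the 12 chromosomes, for the O. sativa list (red) and both O. brachyantha batches (blue). The batches lie close together, the minima of both batches fall below that of O. sativa on chromosomes 2, 3, 6, 7 and 9 to 12, and on chromosome 4 the peak-poor stretch extends farther in O. sativa.

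Chromosome 4 carried a peak-poor stretch that was longer in O. sativa. Between 10 and 25% of the length the species were close, with 37.8 peaks per Mb in O. sativa, 38.5 in batch 1 and 45.5 in batch 2. From 25 to 50% O. sativa stayed at 32.8 (289 peaks in 8.82 Mb), while batch 1 reached 80.3 (438 peaks in 5.46 Mb) and batch 2 reached 87.6 (478 peaks). H3K9me2 covered 38.5% of that second stretch in O. sativa, 6.19% in batch 1 and 9.23% in batch 2. The second stretch runs from 8819526 to 17639051 in O. sativa and from 5456693 to 10913385 in O. brachyantha. Equal relative positions need not be the same ancestral sequence, which was not aligned here.

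On chromosome 9 the order was turned. In the first 5% of the length O. sativa had 36.5 peaks per Mb (42 peaks in 1.15 Mb), batch 1 had 19.3 (15 peaks in 0.775 Mb) and batch 2 had 18.1 (14 peaks). That bin was the lowest of chromosome 9 in O. brachyantha, whereas in O. sativa the lowest was at 35 to 40%, with 30.4 peaks per Mb. Over the first 25% the values were 46.6, 33.0 and 33.8. On chromosome 12, from 35 to 70% of the length, the species had nearly equal density, at 37.6 in O. sativa, 36.1 in batch 1 and 39.3 in batch 2. Over the whole chromosome both batches were higher, with 79.2 and 87.2 against 63.3.

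Widths changed little along the chromosome. From 25 to 75% of the length the median width was 474 bp in O. sativa, 808 bp in batch 1 and 757 bp in batch 2. In the outer parts it was 501, 859 and 796 bp. The median gap was longer in the middle part in each list, at 8767 against 6477 bp in O. sativa, 7681.5 against 5670.5 bp in batch 1 and 6934 against 5061 bp in batch 2. Gaps of at least 20 kb took up 64.3% of the middle part and 44.8% of the outer parts in O. sativa. In batch 1 they took up 47.6% and 22.9%, and in batch 2 46.9% and 21.8%. The outer parts of O. sativa chromosomes thus held nearly the same share of long gaps as the middle of O. brachyantha chromosomes.

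In O. brachyantha, where RefSeq annotates the same assembly, H3K4me3 peaks followed protein-coding genes closely. There were 23230 such genes on the numbered chromosomes, or 89.7 per Mb, which gives 1.05 peaks per gene in batch 1 and 1.15 in batch 2. A peak overlapped 82.1% of the genes in batch 1 and 83.6% in batch 2, and 79.5% carried a peak in both. Of the peaks, 85.7% and 85.9% overlapped a protein-coding gene, and 81.7% and 79.9% had their summit within 1 kb of a gene end (the table gives no strand, so the start could not be told from the far end). The share of chromosome length in genes or near gene ends is not given here, so these values stand without a background. The median distance from summit to the nearest gene end was 411 bp in batch 1 and 492 bp in batch 2.

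Gene density and peak density had nearly the same order over chromosomes (rho = 0.993 for batch 1 and 0.986 for batch 2, n = 12) and over bins (0.943 to 0.996 in single chromosomes). Peaks per gene varied little, from 1.02 on chromosome 4 to 1.10 on chromosome 12 in batch 1. The share of genes with a peak in both batches was highest on chromosome 3, at 83.2%, and lowest on chromosome 11, at 70.9%. It was 61.6% among the shortest 25% of genes (up to 1845 bp) and 89.0% among the longest 25%, and gene length itself enters the chance of an overlap. Peaks that overlapped no protein-coding gene were narrower, with medians of 559 bp in batch 1 and 479 bp in batch 2, against 885 and 831 bp for the others. O. sativa genes were not analysed here, so peaks per gene could not be compared between the species.

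Among genes of non-coding RNAs the share with a peak in both batches ran from 0% to 43.6%, beside 79.5% of protein-coding genes, a difference that was not tested. Of 474 tRNA genes, which are transcribed by RNA polymerase III, 5 overlapped a peak in batch 1, 4 in batch 2 and 3 in both, and none of the 446 that lie outside protein-coding genes did so in both. None of the 55 snRNA genes overlapped a peak in either batch. Of 295 snoRNA genes, 98 (33.2%) overlapped a peak in both batches. The share was 43.6% of 1051 lncRNA genes and 43.7% of 1120 pseudogenes. These classes differ in length, with medians of 73 bp for tRNA genes, 98 bp for snoRNA genes and 2319 bp for lncRNA genes, and length enters the chance of an overlap.

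The widest and strongest peaks of each species lay on several chromosomes. In O. sativa the widest were 3619 bp on chromosome 1, from 29559183 to 29562801 with 5.63-fold enrichment, 3512 bp on chromosome 1, from 22954557 to 22958068 with 6.76-fold, and 3479 bp on chromosome 7, from 23051297 to 23054775 with 5.90-fold. In O. brachyantha the widest, ranked by the mean of the batches, was on chromosome 1 at LOC102709219, from 22264048 to 22269311 in batch 2, with 5264 bp in batch 2 and 3936 bp in batch 1. It was followed by a peak at LOC102710035 on chromosome 7, from 14522832 to 14526667, with 3836 and 4899 bp, and by a peak at LOC102711408 on chromosome 2, from 16438785 to 16442875, with 4091 and 4153 bp. Each of these 3 overlapped 1 annotated gene, which is protein-coding. The O. brachyantha peaks were thus wider than the widest of O. sativa in both batches.

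The widest O. brachyantha peaks were also strong, with 8.01-fold enrichment in batch 2 and 7.67-fold in batch 1 at LOC102709219, 12.5-fold and 14.8-fold at LOC102710035, and 10.2-fold and 8.85-fold at LOC102711408.

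The strongest peaks named here were not the widest, although width and fold rose together within each list. The highest fold enrichments of O. sativa were 10.7 on chromosome 3, from 7575890 to 7576393 (504 bp), 10.7 on chromosome 5, from 16241762 to 16242791 (1030 bp), and 10.5 on chromosome 11, from 27526071 to 27526539 (469 bp). In O. brachyantha the highest single values were 17.7-fold in batch 1 and 16.4-fold in batch 2. Peaks found in both batches were ranked by the mean of the batches. The first was at LOC102707552 on chromosome 2, from 4282916 to 4284003, with 15.3-fold in batch 2 and 14.4-fold in batch 1. It was followed by a peak at LOC102719289 on chromosome 4, from 14827124 to 14828386, with 14.0-fold and 14.9-fold. The next, at LOC102711111 on chromosome 12, from 4588888 to 4589809, had 14.2-fold and 14.5-fold. These 3 peaks were 1088, 1263 and 922 bp wide in batch 2. None of the 6 was among the 3 widest peaks of its species.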

How the data were processed

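Per the labels' protocols, each tillering library started from 8 g of tissue, and the O. brachyantha seedling library from less. Tissue was fixed with 3% formaldehyde and sheared to fragments of 300 to 500 bp, and sequencing was paired, 90 bp from either end. Per the submitters' processing notes, reads were aligned with Bowtie and peaks called with MACS2, and bedtools is also named. Versions, thresholds and the handling of multi-mapped reads are not given in the sources used here. Each deposited list gives interval, summit, pileup signal, and the authors' −log10 p, fold enrichment and −log10 q. Coordinates are 1-based, since some summits equal the interval start. Chromosome length was taken as the highest peak end found in any list on that assembly. Numbered chromosomes were used. A peak was placed by its centre, and an overlap needed 1 bp. Python 3.11.15 with pandas 2.3.3, numpy 2.4.6 and matplotlib 3.10.9 was used, and interval functions were tested on simulated data. No p-values between species were computed. H3K9me2 lists of the same batch gave the share of H3K9me2.

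Gene ends were taken from RefSeq for ObraRS2 (27042 genes). The planned gene groups by product name could not be formed, because the table holds no product names. Named peaks and gaps are the 3 largest by width, fold or length, in O. brachyantha over both batches. The comparison, lists and classes were chosen with earlier results of these data known, and the classes of gap length, the chromosome stretches and the 50% limit for peak-poor bins after the values were seen.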

Additional observations from a re-analysis of the deposited data

How the results depend on the processing

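The ratios below are O. brachyantha over O. sativa. The ratio of peaks per Mb was 1.30 and stayed above 1 in all settings run, with 1.56 for peaks of −log10 q of at least 5. Taking the top 50% of each list cannot change this ratio, because each count is cut by the same share. The ratio of median width, 1.65, was 1.46 for the top 50% of each list by −log10 q, 1.44 for −log10 q of at least 5, 1.88 at equal peaks per Mb, 1.52 with equal numbers of peaks, 1.47 with intervals closer than 500 bp merged and 1.54 for means. The ratio of covered share, 2.00, was 1.96, 2.23, 2.11 and 1.94 for the first 2 of these settings, equal numbers and merging. The ratio of spacing, 0.832, was 0.725 for −log10 q of at least 5 and 0.739 for means, and turned to 1.04 at equal peaks per Mb, a setting that removes the density difference. The ratio of middle over outer density, 0.976, was 0.994 for −log10 q of at least 5 and turned to 1.01 with 40 to 60% of the length against the outermost 20% at each end, so it has no stable direction. The median rank correlation of profiles, 0.852, was 0.837, 0.861 and 0.846 for the 50%, −log10 q and equal density settings, 0.932 with 10 bins and 0.426 with O. brachyantha reversed. The surplus in long gaps, 113 Mb, was 129 Mb with equal numbers, 119 Mb for the top 50% and 141 Mb for −log10 q of at least 5. Each of these settings removes peaks, which lengthens gaps, and each value is above the 113.4 Mb by which the chromosomes differ.

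Leaving out an O. brachyantha batch gave 1.24 and 1.36 for density, 1.59 and 1.71 for width, 0.786 and 0.879 for spacing, 1.99 and 2.00 for coverage, 0.965 and 0.987 for middle over outer density, 0.843 and 0.849 for the correlation, and 112 and 114 Mb for long gaps. The equal number setting and all settings for long gaps were added after the data were seen. Chromosome lengths of a reference assembly were not run, since no such lengths were used here. No paired analysis was possible because O. sativa has 1 library, so the groups share fewer than 2 replicate numbers. Where a value moved and the setting itself does not fix it, the cause was not tested. −log10 q depends on depth, which is unknown.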

Other observations

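The seedling H3K4me3 list of O. brachyantha shows how far lists of 1 species can differ in these measures. It was made from younger plants and from less tissue than the tillering lists, and the part of either was not tested. It held 34160 peaks on the numbered chromosomes, or 132 per Mb, with a median width of 572 bp, a median gap of 4239 bp and a covered share of 8.62%. Its median pileup was 42 and its median fold enrichment 2.97, below the 3.72 of the O. sativa tillering list. Its density and width were each farther from those of the tillering batches than the batches were from each other. In density and median gap it was also farther from the tillering means (98.3 per Mb, 6032 bp) than O. sativa (75.8 per Mb, 7246.5 bp). The seedling width was nearer the 490 bp of O. sativa than the tillering mean of 808.5 bp. Median −log10 q was 7.95 in the seedling list and 7.93 in O. sativa. All 3 O. brachyantha lists had more peaks per Mb, a wider median and a shorter median gap than the O. sativa list, and their covered shares lay between 8.27% and 8.62% against 4.16%.

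H3K4me3 peaks that touched an H3K9me2 peak were few in all lists. They numbered 347 of 28228 (1.23%) in O. sativa, 36 of 24282 (0.148%) in batch 1 and 111 of 26639 (0.417%) in batch 2, where H3K9me2 covered 21.0%, 9.18% and 12.5% of the chromosomes. On unplaced sequences of O. brachyantha there were 9 peaks in batch 1 and 11 in batch 2.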
